A study of Mus musculus with 23 samples.

Results

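Border macrophage and monocyte marker genes were followed in RNA from FACS-sorted GFP+ retinal microglia, to see whether RNA of either cell type shared the GFP gate with microglia. The 10 genes were Mrc1, Cd163, Stab1, Msr1, Lyve1, F13a1, Pf4, Cbr2, Ms4a7 and Ccr2, chosen by name as known markers and found among the 35825 genes of the deposited table by their Ensembl identifiers. All 10 reached 10 normalized counts in 3 or more libraries, the filter on low values that left 17102 genes for testing, and each was measured in 23 libraries.

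Macrophages at the borders of the nervous system live along vessels, in the meninges and, in the eye, in the ciliary body and the hyalocyte layer, and they carry scavenger and lectin receptors that resting microglia hardly use. Classical monocytes circulate in blood and enter injured tissue through the chemokine receptor CCR2. Both cell types express Cx3cr1 to some degree, so a GFP gate set by the Cx3cr1 locus can admit them beside microglia, and some of these markers, such as Msr1 and Ms4a7, can also be expressed by reactive microglia. The libraries were bulk RNA, in which fewer cells of a type and less RNA per cell cannot be told apart.

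CX3CR1-GFP mice (WT), which express GFP from the fractalkine receptor locus, and Spp1 KO; CX3CR1-GFP mice (KO), which in addition carry a germline knockout of osteopontin, were each sampled without treatment (naive), at 4 weeks after microbead elevation of intraocular pressure (IOP) and at day 7 after optic nerve crush (ONC). Every group therefore carried the GFP reporter, and WT refers to Spp1 only. Each group had 4 libraries except WT ONC, which had 3, and retinas of several mice of 1 genotype and condition were pooled before sorting. The labels do not say whether replicate libraries came from separate pools, so the p-values below measure the spread between libraries, and they give no age.

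The 10 genes lie on 10 different chromosomes, and RefSeq (GRCm38.p6) gave the start site region of 8 of them, with Msr1 and Lyve1 not matched. The windows, 250 bases before to 50 after the start, were searched on both strands for GAGGAA, read TTCCTC on the other strand, a core bound by the myeloid factor PU.1. They were also searched for TGCTGA, read TCAGCA on the other strand, a short site of MAF factors. GAGGAA was present in 6 of the 8 windows and in 28.3% of 32851 windows of the same length. TGCTGA was present in 2 of the 8 and in 19.5% of all. A match is a description of letters only. The windows of Mrc1 (chr2:14229164-14229463, + strand), F13a1 (chr13:37050195-37050494, - strand) and Pf4 (chr5:90772185-90772484, + strand) are shown because these genes moved together across libraries, and that of Cd163 (chr6:124304401-124304700, + strand) because it had no match. Capitals mark the matches to GAGGAA or its other strand, 3 in Mrc1, 2 in F13a1 and 1 in Pf4.
Mrc1: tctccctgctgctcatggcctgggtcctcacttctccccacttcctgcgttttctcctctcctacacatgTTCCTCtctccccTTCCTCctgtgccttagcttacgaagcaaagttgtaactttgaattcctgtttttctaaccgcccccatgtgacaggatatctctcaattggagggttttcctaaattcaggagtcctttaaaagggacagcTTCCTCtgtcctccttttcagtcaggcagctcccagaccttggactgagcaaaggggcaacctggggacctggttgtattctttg
F13a1: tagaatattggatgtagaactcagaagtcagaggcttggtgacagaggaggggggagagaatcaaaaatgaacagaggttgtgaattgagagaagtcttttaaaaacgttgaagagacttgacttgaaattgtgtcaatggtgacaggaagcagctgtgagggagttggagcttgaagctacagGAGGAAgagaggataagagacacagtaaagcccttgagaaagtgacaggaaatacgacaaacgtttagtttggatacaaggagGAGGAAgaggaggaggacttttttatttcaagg
Pf4: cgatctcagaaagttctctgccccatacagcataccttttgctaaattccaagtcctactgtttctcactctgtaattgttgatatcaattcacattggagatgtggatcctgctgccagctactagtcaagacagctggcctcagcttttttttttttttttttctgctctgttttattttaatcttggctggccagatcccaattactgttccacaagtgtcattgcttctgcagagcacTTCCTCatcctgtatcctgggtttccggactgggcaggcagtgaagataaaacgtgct
Cd163: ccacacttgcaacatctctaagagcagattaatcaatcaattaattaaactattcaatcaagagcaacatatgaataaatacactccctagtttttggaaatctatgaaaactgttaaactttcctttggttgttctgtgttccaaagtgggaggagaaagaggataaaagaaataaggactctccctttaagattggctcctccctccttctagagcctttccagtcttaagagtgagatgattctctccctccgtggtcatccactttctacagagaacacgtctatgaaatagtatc

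Several features of the libraries touch these genes. Spp1, the targeted gene, was 334 to 1518 normalized counts in WT naive, 1343 to 2772 in WT IOP and 14556 to 22905 in WT ONC. In the libraries labelled KO it was 6.78 to 350.2 in naive retinas, 25.5, 810.7, 9.28 and 761.3 in replicates 1 to 4 after IOP elevation, and 4750.4, 6811, 15.0 and 6226 in replicates 1 to 4 after ONC. The labels do not describe the allele, and counts per gene do not show whether these reads came from its deleted part. Calls among the 10 genes that rest on the 5 KO libraries highest in Spp1 are therefore also given without them. The 5 were KO IOP replicates 2 and 4, and KO ONC replicates 1, 2 and 4. Calls of genes outside the 10 are given with all libraries only. Each of these 5 lay below every WT library of its condition. KO naive replicate 1, the next highest at 350.2, lay above WT naive replicate 3 at 333.6. Leaving it out along with the 5 gave the same number of the 10 genes called in each comparison as leaving out the 5. KO naive replicate 3 held more RNA of homeostatic microglial genes than its group, 38912 CPM (its share of the normalized counts of the library, on the usual CPM scale) against 13918 to 18370 in the others. Summed lens genes reached 9266 CPM in WT IOP, against at most 165 in the 19 libraries of the other groups.

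In WT naive each marker lay below the median homeostatic microglial gene per kilobase of exon. In normalized counts some markers exceeded members of that list, with Sall1 at 3016 to 3792 and Mrc1 at 6164 to 11738 in WT naive. Compared per kilobase of exon, Mrc1 in WT naive reached 7.60% to 16.2% of the median level of the homeostatic microglial genes, and Pf4, a short chemokine transcript, reached 17.2% to 55.1%. Ccr2 in WT naive reached at most 0.311% of that level. The group means per kilobase in WT naive were 4513 for Pf4, 1760.3 for Stab1, 1556 for F13a1, 1549 for Mrc1, 217 for Cbr2 and 27.0 for Ccr2, so Pf4 led and Ccr2 was the least expressed.

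Mrc1 (chr2:14229392-14332057 in GRCm38) encodes the mannose receptor CD206. Its normalized counts were 10863, 11738, 6164 and 10719.6 in WT naive, 4870.4, 17615, 9985 and 5820.1 in WT IOP, and 199.97, 727 and 1459 in WT ONC. The libraries labelled KO had 3707, 3809, 10207 and 4979 in naive retinas, 10014, 12388, 10685 and 11528 after IOP elevation, and 7038, 4261, 3368 and 1619 after ONC. Every WT ONC library lay below every other library of the series. In the order of group means, KO IOP, WT naive, WT IOP, KO naive, KO ONC and WT ONC, each group overlapped its neighbour except that WT ONC did not reach KO ONC.

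**Figure D1:**
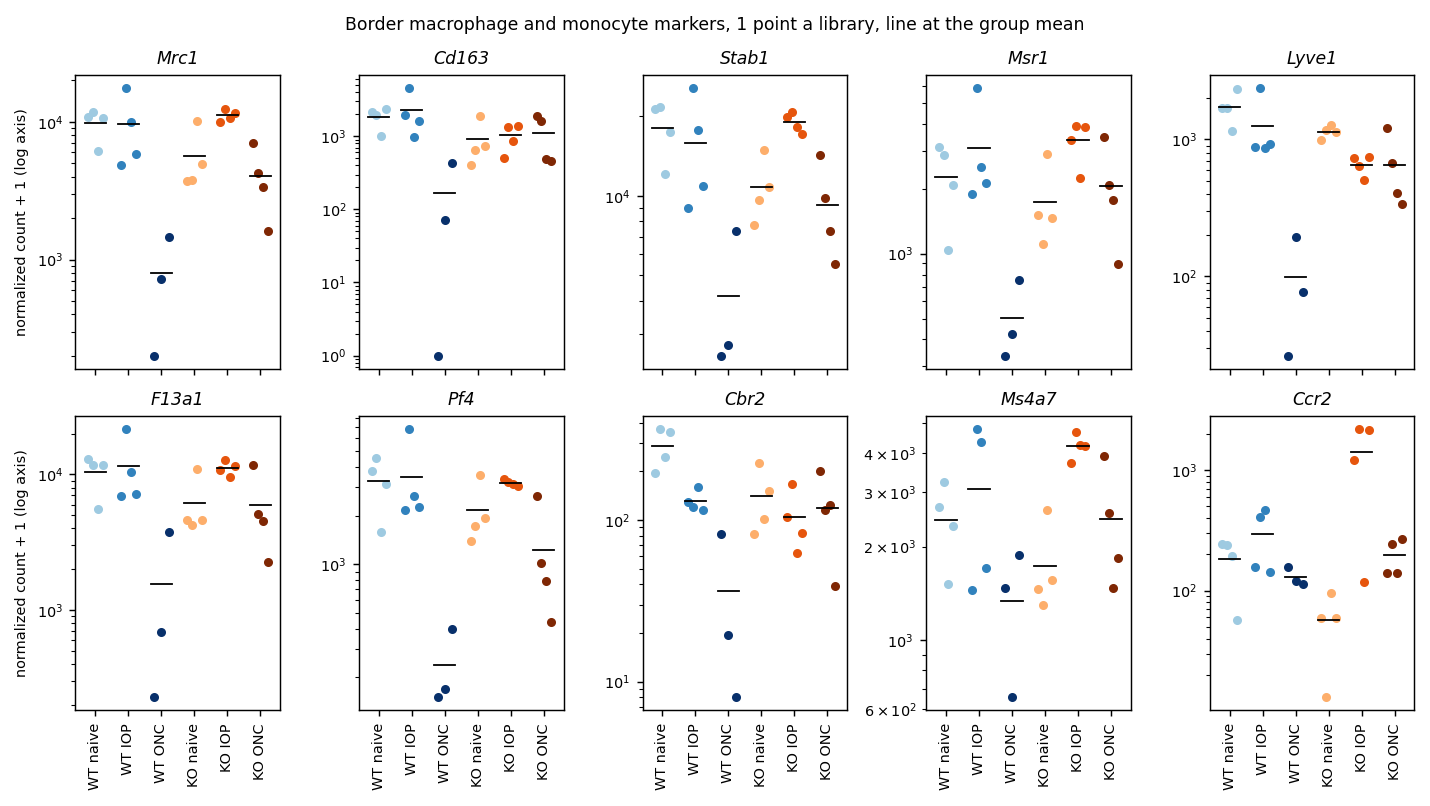
Normalized count + 1 on a log axis for each of the 10 genes, by group, with 1 point a library and a line at the group mean (WT in blue, KO in orange). Mrc1 in WT ONC sat at 199.97 to 1459, below all other libraries, and Ccr2 in KO IOP had 3 libraries between 1217 and 2177 and 1 at 117.

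The summed level of the 10 genes was likewise lowest in WT ONC. It was 2335, 2494, 1195 and 2035 CPM in WT naive, 1252, 3455, 1984 and 1373 in WT IOP, and 139, 227 and 504 in WT ONC. In the libraries labelled KO it was 948, 1145, 1846 and 1289 in naive retinas, 2021, 2394, 1799 and 2144 after IOP elevation, and 1537, 872, 678 and 506 after ONC. The 3 WT ONC libraries were the lowest of the 23, and the lowest KO ONC library, replicate 4, lay just above the highest of them.

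Set against the summed homeostatic microglial genes of the same library (Cx3cr1, the reporter locus, left out), the 10 genes were 3.43% to 8.25% in WT naive, 5.98% to 11.3% in WT IOP and 0.379% to 1.30% in WT ONC. They were 4.87% to 7.49% in KO naive, 4.55% to 7.58% in KO IOP and 1.60% to 4.48% in KO ONC. On this scale the ONC libraries of each label lay below all 4 naive libraries of that label, and KO naive lay within the range of WT naive.

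**Figure D2:**
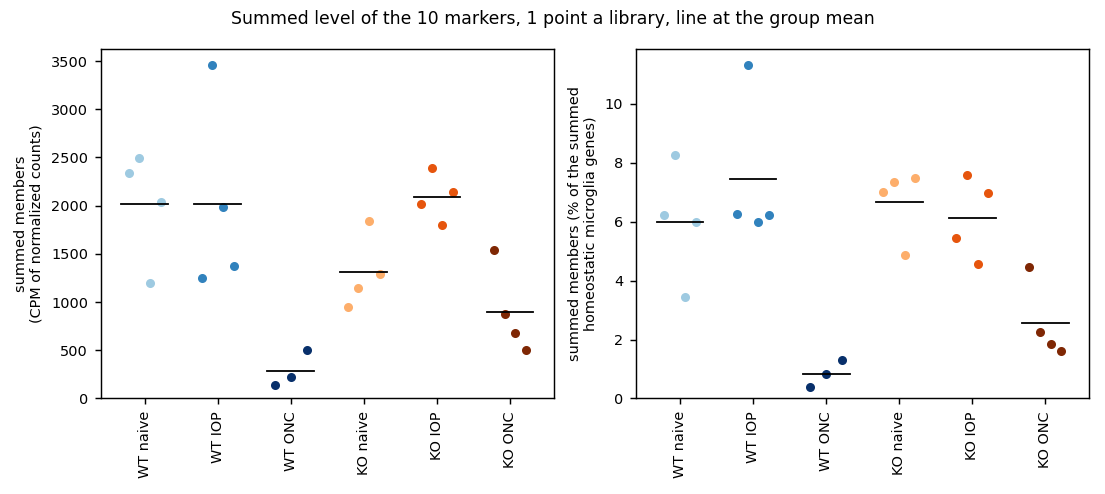
Summed level of the 10 genes by group, in CPM (left) and as a percentage of the summed homeostatic microglial genes without Cx3cr1 (right), with 1 point a library and a line at the group mean. The WT ONC libraries were lowest on both scales, at 139 to 504 CPM and 0.379% to 1.30%.

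After nerve crush the WT libraries held less RNA of most of the 10 genes. In WT ONC against WT naive, 8 of the 10 genes fell and 0 rose, while 10.5% of all tested genes fell and 18.1% were called in either direction (limma, adjusted p under 0.05 and a log2 fold change beyond 0.58). The median log2 fold change of the 10 was -3.58, against -0.10 over all tested genes. For the same 8 genes the WT ONC and WT naive libraries did not overlap, a pattern met by 14.3% of all tested genes. In each of the 7 fits that left out 1 library, 8 genes were called. With 3 against 4 libraries an exact permutation test cannot go below p = 0.0571, and each of the 8 reached that value (two-sided).

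The lectin and mannose binding receptors fell steeply. Mrc1 fell by 4.00 on the log2 scale (SE 0.55, adjusted p = 3.63e-05 by limma), to a WT ONC mean of 795 ± 632 (SD, n = 3) from 9871 ± 2512 (SD, n = 4). Lyve1 (chr7:110850607-110863239), the hyaluronan receptor of lymphatic vessels and perivascular macrophages, was 1678, 1699, 1157 and 2314 in WT naive and 25.5, 192 and 76.0 in WT ONC. It fell by 4.50 (SE 0.49, adjusted p = 5.02e-06 by limma), and its highest WT ONC library was below its lowest WT naive library.

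The scavenger receptors fell to different degrees. Cd163 (chr6:124304656-124330527), the receptor that takes up haemoglobin bound to haptoglobin, was 2128, 1970.0, 1017 and 2337 in WT naive and 0, 70.2 and 433 in WT ONC. The library at 0 was replicate 1, where 3 reads correspond to 4.03 normalized counts. Cd163 fell by 5.82 (SE 1.19, adjusted p = 0.00174 by limma), with the widest error of the 10. Without WT ONC replicate 1, the library at 0, the drop was smaller, at -3.34 (adjusted p = 0.00643), against -3.77 for Lyve1, and in a fit of the 2 groups alone the call of Cd163 was lost (adjusted p = 0.0744). Stab1 (chr14:31139013-31168641), the stabilin that clears modified lipoproteins and matrix fragments, fell by 2.26 (SE 0.38, adjusted p = 0.000266 by limma), from 12071 to 21578 in WT naive to 2486, 2729.6 and 7349. Msr1 (chr8:39581685-39642673), the class A scavenger receptor, fell by 2.14 (SE 0.46, adjusted p = 0.00257 by limma), from 1034 to 3111 to 336, 425 and 751. Both kept more of their RNA than Cd163, with WT ONC means at 23.1% and 22.2% of the WT naive means.

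Among the secreted factors and enzymes, F13a1 (chr13:36867178-37050244), the coagulation factor XIII A subunit that crosslinks fibrin, was 12930.3, 11652, 5599 and 11769.9 in WT naive and 228, 686 and 3794 in WT ONC. It fell by 3.57 (SE 0.65, adjusted p = 0.000609 by limma). Pf4 (chr5:90772435-90773383), the chemokine platelet factor 4, was 1581 to 4521 in WT naive and 150.3, 168 and 397 in WT ONC, and it fell by 3.81 (SE 0.50, adjusted p = 2.37e-05 by limma). The summed platelet and megakaryocyte markers were 39.1 to 129 CPM in WT ONC and 81.7 to 101 in WT naive. The integrin Itgb3 was the largest part of that sum, at 1114 to 3966 normalized counts in WT ONC and 1621 to 2402 in WT naive. The other markers were low and did not share a direction. Ppbp was 0 throughout WT ONC against 10.1 to 24.5 in WT naive, whereas Treml1 was 4.60 to 68.4 against 2.79 to 7.60. Cbr2 (chr11:120729489-120732114), a carbonyl reductase of macrophages, was 194 to 363 in WT naive and 80.5, 18.4 and 7.02 in WT ONC, and it fell by 3.59 (SE 0.62, adjusted p = 0.000369 by limma). WT ONC replicate 1 was the lowest of its group for 7 of the 10 genes, yet for Cbr2 and Ccr2 it was the highest.

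The other two genes did not pass the test. Ms4a7 (chr19:11321039-11336146), a membrane protein of the MS4A family, was 2676, 3235, 1520.2 and 2335 in WT naive and 1469.6, 656 and 1881 in WT ONC, a log2 fold change of -0.95 (SE 0.42, adjusted p = 0.115 by limma). Ccr2 (chr9:124101950-124113557) was 243, 239, 193 and 55.7 in WT naive and 157, 119 and 112 in WT ONC, a log2 fold change of -0.31 (SE 0.82, adjusted p = 0.824 by limma). The libraries of the groups overlapped for both genes.

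In the libraries labelled KO the drop after crush was not called. In KO ONC against KO naive 0 of the 10 genes were called by limma, with 3 at an unadjusted p under 0.05 (Lyve1, Pf4 and Ccr2), against 23.6% of all tested genes called. edgeR on whole reads called 0 and DESeq2 called 1, Ccr2. Ccr2 was also the only 1 of the 10 whose groups did not overlap, at 138 to 268 in KO ONC above 12.1 to 94.9 in KO naive, against 13.4% of tested genes higher without overlap. Mrc1 had a log2 fold change of -0.53 (SE 0.51, adjusted p = 0.460 by limma), Lyve1 of -0.98 (SE 0.46, adjusted p = 0.124) and Pf4 of -1.04 (SE 0.46, adjusted p = 0.104). When each value was taken relative to the homeostatic microglial genes of its library, Mrc1, Stab1, Lyve1 and Pf4 were called, all lower in KO ONC. Of the 14 homeostatic genes themselves 9 rose and 0 fell in KO ONC against KO naive. KO naive replicate 3 was the highest of its group for 9 of the 10 genes, and without it 1 gene was called in place of 0. Without KO ONC replicate 1 it was 2.

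Compared with WT ONC, the KO ONC libraries held more RNA of the 10 genes. All 10 had a higher estimate in KO, 9 of them at an unadjusted p under 0.05, and 1 was called by limma, against 0.0877% of all tested genes called and 0.0760% called higher. The median log2 fold change of the 10 was 2.16, against 0.03 over all tested genes. Mrc1, Cd163, Msr1, Lyve1 and Pf4 did not overlap between the groups, all higher in KO, a pattern met by 3.96% of tested genes. With 4 against 3 libraries each of these 5 reached the smallest exact permutation p, 0.0571 (two-sided). The count called was 0 without WT ONC replicate 1, 4 without WT ONC replicate 2 or 3, and 3 without KO ONC replicate 4. Without the 5 KO libraries highest in Spp1, a single KO ONC library was left, assumed to vary like the other groups, and 0 genes were called, with a median of 2.16.

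Lyve1 was the gene called. It was 1209, 666, 402 and 336 in KO ONC against 25.5, 192 and 76.0 in WT ONC, so that the lowest KO library exceeded the highest WT library. The log2 fold change was 2.97 (SE 0.49, adjusted p = 0.00908 by limma). Leaving out 1 library at a time gave 2.24 to 3.67, and without WT ONC replicate 1 the adjusted p was 0.0931. Without the 5 libraries named above it was 2.46, with an adjusted p of 1.0. With edgeR it was 2.73 (adjusted p = 0.197), relative to the homeostatic genes 2.96 (adjusted p = 0.119) and in a fit of the 2 groups alone 2.97 (adjusted p = 0.827). Summed Y-linked genes were 92.7 to 166 CPM in KO ONC, and 125, 6.22 and 3.34 in WT ONC replicates 1 to 3. Their part in the result was not tested.

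For the other genes the estimates were of like size with wider errors. Mrc1 was higher by 2.58 on the log2 scale (SE 0.55, adjusted p = 0.0875 by limma), with 1619 to 7038 in KO ONC above 199.97 to 1459 in WT ONC. Cd163 was 1875, 1593, 492 and 462 in KO ONC, each above the 433 of the highest WT ONC library, with a log2 fold change of 4.86 (SE 1.19, adjusted p = 0.146 by limma). F13a1 was 11721, 5119.8, 4513 and 2271 in KO ONC, and its lowest library lay below the 3794 of WT ONC replicate 3. Stab1, Cbr2, Ms4a7 and Ccr2 overlapped as well. KO ONC replicate 1 was the highest of its group for 9 of the 10 genes and replicate 4 the lowest for 8.

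Whether crush acted differently by genotype was tested as an interaction. All 10 estimates were above 0, so that the log2 change from naive to crush was higher in the libraries labelled KO than in WT, with a median of 3.01 against 0.05 over all tested genes, all 10 at an unadjusted p under 0.05. The homeostatic microglial genes also all had estimates above 0, from 0.27 (Slc2a5, SE 0.56) to 1.62 (Sparc, SE 0.37). 1 gene, Lyve1, was called, at 3.53 (SE 0.67, adjusted p = 0.0470 by limma), against 0.0702% of tested genes. Mrc1 reached 3.47 (SE 0.74) and Cd163 6.04 (SE 1.62), with adjusted p = 0.0728 and 0.139. The number called went from 0 to 7 as single libraries were left out, with 7 without KO naive replicate 3, 5 without WT ONC replicate 3, and 2 without WT ONC replicate 2 or KO ONC replicate 4. It was 0 without any 1 of the WT naive libraries, of KO naive replicates 1, 2 and 4, or of KO ONC replicates 1, 2 and 3, and 0 without the 5 libraries named above. Lyve1 also lost its call without WT ONC replicate 1.

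**Figure D3:**
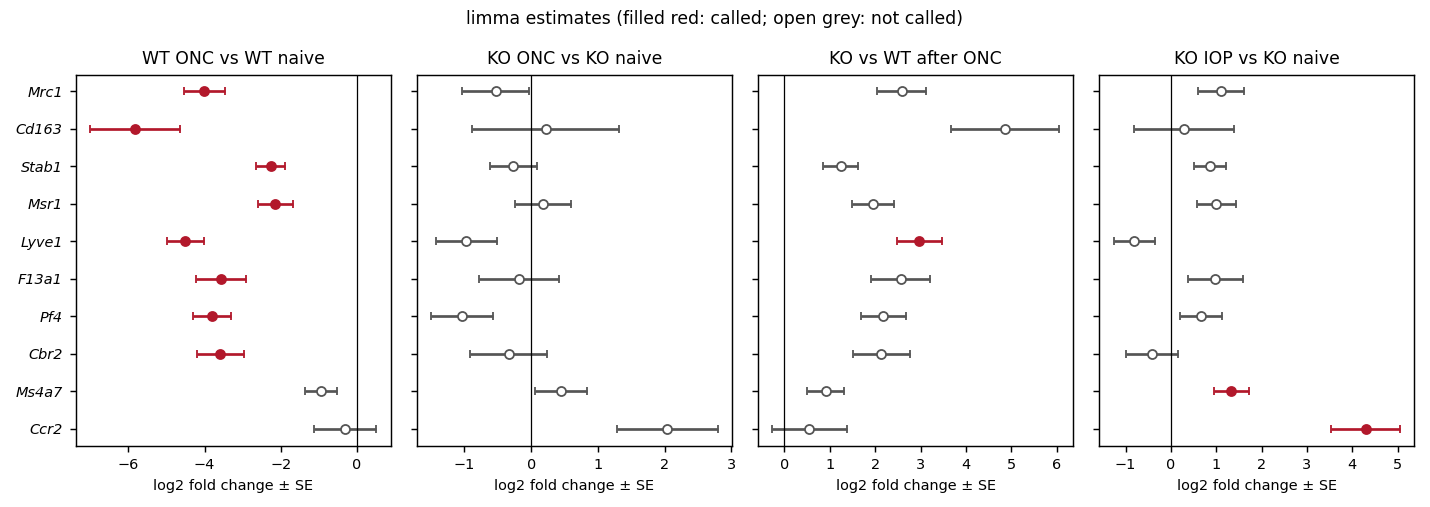
log2 fold change with its standard error from limma for the 10 genes in 4 comparisons, with called genes in filled red and the rest open. In WT ONC against WT naive 8 genes were called, from -2.14 to -5.82, in KO ONC against KO naive 0, in KO against WT after ONC Lyve1 alone, and in KO IOP against KO naive Ms4a7 and Ccr2.

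After raised intraocular pressure no change of these genes was called in WT retinas. In WT IOP against WT naive 0 of the 10 genes were called by limma, 0 reached an unadjusted p under 0.05, and 1.56% of all tested genes were called. edgeR and DESeq2 on whole reads also called 0. Mrc1 had a log2 fold change of -0.19 (SE 0.51) and F13a1 of 0.04 (SE 0.60), errors that leave room for a change of about 1 on the log2 scale. Cbr2 was 129, 119, 159 and 114 in WT IOP, all below the 4 WT naive libraries, and was the only gene of the 10 whose groups did not overlap, against 7.03% of tested genes lower without overlap. Its two-sided p was 0.0286 by an exact permutation test, which with 4 libraries a group can go no lower, and 70 such tests were made. WT IOP replicate 2 was the highest of its group for 8 of the 10 genes.

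In the libraries labelled KO, raised pressure was followed by a rise of the monocyte receptor Ccr2. It was 58.8, 12.1, 94.9 and 58.6 in KO naive and 1217, 2177, 117 and 2145 in KO IOP, where replicate 3 lay just above the highest KO naive library and the other 3 libraries were above every other library of the series. Ccr2 rose by 4.30 on the log2 scale (SE 0.76, adjusted p = 0.00611 by limma), with 7.88% of all tested genes called and 5.06% called higher. As single libraries were left out its estimate ran from 3.69 to 5.28 and the call held. Without the 5 libraries named above it was 3.04 (adjusted p = 0.120), without KO naive replicate 1 as well 3.17 (adjusted p = 0.199), with a homeostatic microglia covariate 3.76 (adjusted p = 0.205) and with edgeR 3.58 (adjusted p = 0.0668). With a rod photoreceptor covariate the call was lost as well (adjusted p = 0.133).

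Ms4a7 was the other gene called. It was 1461, 1299, 2628 and 1564 in KO naive and 3722, 4683, 4230.3 and 4219.6 in KO IOP, without overlap. It rose by 1.33 (SE 0.39, adjusted p = 0.0400 by limma), and the call was kept in 1 of the 8 fits that left out a library, the one without KO naive replicate 3, with adjusted p from 0.0113 to 0.134. Without the 5 libraries it was 1.25 (adjusted p = 0.184). Stab1 was also without overlap and higher, and Lyve1 without overlap and lower, at 730.0, 639, 504 and 736 against 987 to 1265. Non-overlap was met by 5.43% of tested genes in the higher and 6.29% in the lower direction. Mrc1 had a log2 fold change of 1.10 (SE 0.51, adjusted p = 0.163 by limma). Relative to the homeostatic microglial genes, the median of the 10 turned from 0.92 to -0.084, and Lyve1, lower, and Ccr2, higher, were the genes called. Of the 14 homeostatic genes 6 rose and 1, Cx3cr1, fell in the same comparison.

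The other monocyte markers were counted in the same comparison. Of 15 classical monocyte markers, all tested, 2 rose in KO IOP against KO naive, Lgals3 and Lyz2, both of which microglia and macrophages also express, and 0 fell, against the 5.06% of tested genes called higher. Their summed level was 2408, 3985, 1998 and 3972 CPM in KO IOP replicates 1 to 4, and 1248 to 2214 in KO naive. Lyz2 was the largest part of it, at 20160 to 51245 normalized counts in KO naive and 57881, 90232, 46480 and 90074 in KO IOP. Ly6c2, the defining surface marker of classical monocytes, was 78.4, 31.1, 155 and 49.5 in the same libraries and did not pass the test (log2 fold change 0.87, SE 0.74, adjusted p = 0.471 by limma). It was highest in replicate 3, where Ccr2 was lowest, and lowest in replicates 2 and 4, where Ccr2 was highest. Cx3cr1 was 952 to 1233 in KO IOP, against 9417 to 26283 in KO naive and 26836 to 54612 in WT IOP. Summed Y-linked genes were 3.67 to 6.36 CPM in KO IOP and 53.2 to 195 in WT IOP. In KO naive replicates 1 to 4 they were 155, 236, 7.01 and 229. Between KO IOP and WT IOP neither difference can be told apart from that of the Spp1 label. The part of Cx3cr1 and of the Y-linked genes in the result was not tested.

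Between genotypes after IOP elevation 0 of the 10 genes were called by limma, 1 (Ccr2) had an unadjusted p under 0.05, and 2.11% of all tested genes were called. edgeR and DESeq2 also called 0. Ccr2 was 155, 404, 464 and 143 in WT IOP, a log2 fold change of 1.83 for KO over WT (SE 0.76, adjusted p = 0.178 by limma). Without KO IOP replicate 3 it was 2.81 (adjusted p = 0.0251). Lyve1 was the only gene of the 10 without overlap, at 504 to 736 in KO IOP below 866 to 2368 in WT IOP, against 7.86% of tested genes lower without overlap. The interaction of genotype and IOP elevation called Ccr2 at 3.62 (SE 1.07, adjusted p = 0.0384 by limma), against 8.75% of tested genes, and 11 of the 16 fits that left out a library lost that call. Those 11 left out WT naive replicate 1, 2 or 3, WT IOP replicate 1 or 4, KO naive replicate 1, 2 or 4, or KO IOP replicate 1, 2 or 4. Without the 5 libraries it was 2.36 (adjusted p = 0.244). Every KO IOP library was also below every WT IOP library in Cx3cr1 and in summed Y-linked genes. Neither difference can be told apart from the label in these comparisons.

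In naive retinas all 10 genes had lower estimates in KO than in WT, with a median of -0.79 against 0.03 over all tested genes. By limma 0 were called and 2 (Stab1 and Ccr2) reached an unadjusted p under 0.05, while 0.409% of all tested genes were called. edgeR and DESeq2 called 0. Ccr2 was lower by a log2 fold change of -1.79 (SE 0.76, adjusted p = 0.251) and Stab1 by -0.75 (SE 0.35, adjusted p = 0.299). No gene was without overlap, against 9.60% of tested genes. All 14 homeostatic microglial genes also had lower estimates in KO naive, with 2 called (Fcrls and Sparc), and relative to them the median of the 10 turned to 0.093. Summed rod photoreceptor genes were 31203, 33158, 11789 and 36893 CPM in KO naive replicates 1 to 4 and 14629 to 17898 in WT naive. Their part in the result was not tested.

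Across the 23 libraries several of the genes kept a narrow proportion to each other. F13a1 divided by Mrc1 stayed between 0.890 and 2.60 and Pf4 divided by Mrc1 between 0.231 and 0.752, while Mrc1 itself spanned 88.1-fold. The other ratios to Mrc1 were wider, at 1.45 to 12.4 for Stab1, 0.168 to 1.68 for Msr1 and 0.0472 to 0.306 for Lyve1. Ms4a7 divided by Mrc1 ranged from 0.218 to 7.35. Among the 8 genes other than Ccr2 and Cbr2 the 28 pairwise Spearman correlations ran from 0.231 to 0.962 with a median of 0.789. Ccr2 stood apart, with 9 correlations from -0.144 to 0.584, and Cbr2 with the 8 had 0.142 to 0.712. These are descriptions over libraries that share groups, depth and microglial content.

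**Figure D4:**
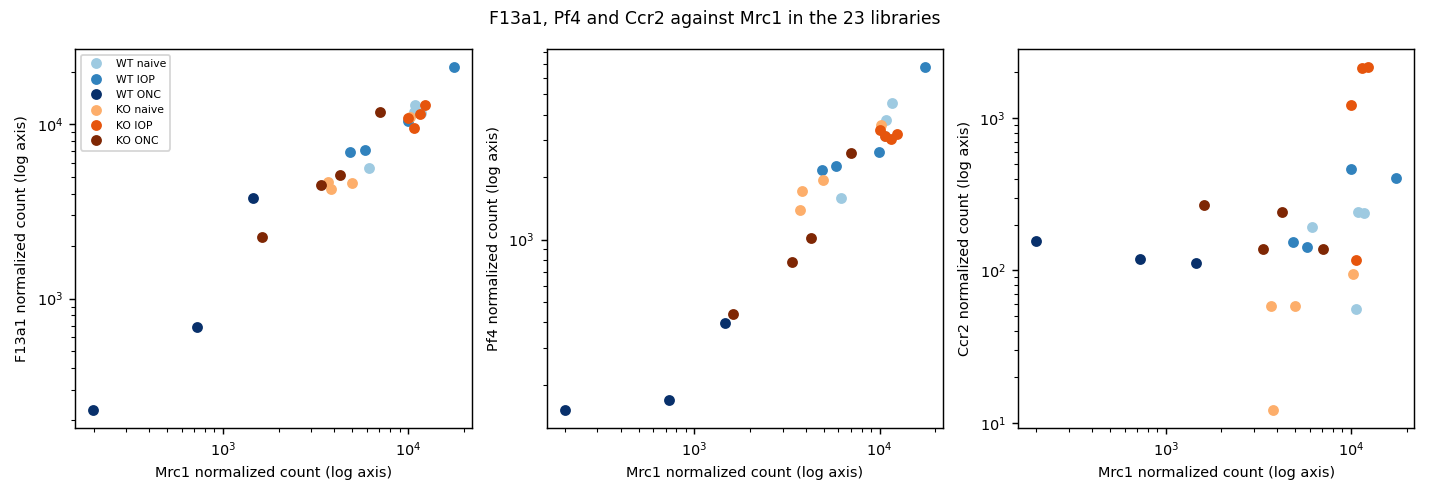
F13a1, Pf4 and Ccr2 against Mrc1 as normalized counts on log axes, 1 point a library, coloured by group. F13a1 and Pf4 followed Mrc1 over its 88.1-fold span, whereas Ccr2 was highest in 3 KO IOP libraries, at 1217 to 2177.

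The genes with the most similar pattern over the 23 libraries, by Spearman correlation of log2 values, included markers of the second macrophage list. For Mrc1 they were Dab2, an endocytic adaptor, Cmah and Cd38, an NAD glycohydrolase, at Spearman 0.942, 0.918 and 0.912. Dab2 also led for Msr1 (0.960), Pf4 (0.944) and Stab1 (0.932), and Cd38 led for F13a1 (0.939) and Cd163 (0.845). For Lyve1 they were Psd3 and Cd28 (0.902 and 0.882), for Ms4a7 Aoah and Tgfbi (0.899 and 0.883), for Cbr2 Wdr48 (0.787) and for Ccr2 Sirpb1a, Wfdc17 and Plbd1 (0.809, 0.790 and 0.740).

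A second list of 20 border macrophage markers, of which 17 were tested, was also lower by its median after crush in WT. In WT ONC against WT naive 9 fell and 1, the sialic acid receptor Siglec1, rose, by 1.13 (SE 0.36, adjusted p = 0.0339 by limma), with a median of -2.25. Of all tested genes 10.5% fell and 18.1% were called in either direction. Dab2 was 9901, 10741, 4514 and 8127 in WT naive and 584, 723 and 2418 in WT ONC, without overlap. Clec10a, a galactose lectin, was 34.6 to 60.4 in WT naive and 0, 5.75 and 0 in WT ONC. In KO against WT after ONC, 15 of the 17 had higher estimates and 0 lower. Cd209b and Cd209f were 0 in every library of both groups. Some of the higher estimates were small beside their errors, such as Siglec1 at 0.12 (SE 0.36) and Cd36 at 0.14 (SE 0.52). Clec10a was called at 4.26 (SE 0.67, adjusted p = 0.00630 by limma), against 0.0760% of all tested genes called higher. Its KO ONC values were 39.5, 64.2, 22.5 and 26.8.

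Monocyte markers gave no common direction. Of the 15 classical monocyte markers 2 rose (Lgals3 and Thbs1) and 0 fell in WT ONC against WT naive, and their summed level was 653 to 1453 CPM against 1001 to 2087. Lyz2 was again the largest part of that sum, at 11381 to 30437 normalized counts in WT ONC and 20468 to 41795 in WT naive. Of 10 nonclassical monocyte markers 2 fell (Itga4 and Nr4a1) and 0 rose. In this comparison 18.1% of all tested genes were called in either direction and 10.5% were called lower. The monocyte attractant Ccl2 rose in WT ONC by 3.62 (SE 0.46, adjusted p = 1.82e-05 by limma) and in KO ONC against KO naive by 3.56 (SE 0.43, adjusted p = 9.64e-06). Ccr2 itself, at 112 to 157 in WT ONC and 138 to 268 in KO ONC, did not pass the test in either comparison.

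Of the microglial reference genes, P2ry12 was 49336 to 70733 in WT naive and 25227, 40445 and 47652 in WT ONC (log2 fold change -0.76, SE 0.33, adjusted p = 0.110 by limma), while the WT ONC mean of Mrc1 was 8.06% of its WT naive mean. Of 14 homeostatic microglial genes 1 rose (Olfml3) and 0 fell in that comparison, against 18.1% of all tested genes called in either direction.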

How the data were processed

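RNA-seq libraries (paired-end, 150 bp) of GFP+ retinal microglia were made by the authors with a SMARTer kit. They mapped reads to GRCm38, with salmon per the methods and STAR per the submitters' processing notes, and deposited a table of DESeq2-normalized counts (a signal, counts divided by size factors) per Ensembl gene. Symbols came from GENCODE M21. Values are whole multiples of 1 read within 0.01 in 100% of cases, and recovered reads on genes were 22180480 to 30296094 in 21 libraries; 2 libraries (KO IOP replicates 2 and 4), whose step is close to 1, were left out of count models, so KO IOP had 2 libraries there.

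limma 3.58.1 (R 4.3.3) was fitted to log2(normalized count + 1) over the 6 groups with a trended prior, with Benjamini-Hochberg adjustment over 17102 genes and a gene called where its adjusted p was under 0.05 and its log2 fold change beyond 0.58 either way. Fold changes are on that scale and understate low genes. edgeR 4.0.16 and DESeq2 1.42.0 on recovered reads were alternatives, beside other pseudocounts, filters, scalings, covariates and libraries left out. Exact permutation tests used scipy 1.17.1. Fits were tested on simulated data. In KO against WT after ONC limma recovered 36 of 100 genes changed by log2 1.5 and 63 of 100 changed by log2 3. False calls were 2 with limma, 1 with edgeR and 30 with DESeq2, so a count of 0 called can miss real changes. Groups came from the labels. The members, marker lists and comparisons were chosen with earlier results of these data known. Genes named are the members, microglial reference genes, listed markers called in a comparison, and the 3 genes most like each member. Dab2 values, Ly6c2, Spp1 and Mrc1 ratios were added after seeing the data.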

Additional observations from a re-analysis of the deposited data

Results flagged for a closer look

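In 4 sets of values, each of 1 measure in 1 group, 1 library stood apart by a gap large against the set's range. 55 such sets were checked, and chance alone would single out about 1 in 20 sets. In 3 of the 4 that library was WT IOP replicate 2, so these 3 are not independent. It had Msr1 at 5867.5 normalized counts (1887 to 2510.2 in the others), Lyve1 at 2368 (866 to 923) and Pf4 at 6807 (2174 to 2636). The other was KO naive replicate 3 with F13a1 at 10979 (4256 to 4648).

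The effect of an injury differed between genotypes, by the test of the difference itself, for 2 genes. Ccr2 differed in its response to IOP elevation by 3.62 on the log2 scale (adjusted p = 0.0384 by limma), and Lyve1 differed in its response to ONC by 3.53 (adjusted p = 0.0470). Both calls were lost in 11 of the fits that left out 1 library, out of 16 and 15 fits. For Ccr2, the KO IOP libraries also lay below the WT IOP libraries in Cx3cr1 and Y-linked genes. That difference cannot be told apart from the label.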

How the results depend on the processing

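For single genes, 933 alternative values of 35 results were computed: 822 kept direction and side of the threshold, 70 lost a call, 41 gained one, and 0 changed sign. Only the medians of the 10 genes changed sign, relative to the homeostatic microglia list (chosen after seeing the data, like the fits without the libraries highest in lens genes or in Spp1): 0.093 in KO against WT, naive, and -0.084 in KO IOP against KO naive. In WT ONC against WT naive 8 genes were called in each fit that left out 1 library and 7 to 9 under the other alternatives: Cd163 lost its call with only the groups compared, and Ms4a7 gained one with either covariate and relative to the homeostatic list. Leaving out KO naive replicate 1 with the 5 KO libraries highest in Spp1, 6 in all, gave the counts called without the 5, 0 wherever those are listed below. The cause of the other changes was not tested.

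In KO against WT, ONC, the count called (1) was 4 with DESeq2, 3 with a rod photoreceptor covariate, 3 with a homeostatic microglia covariate, and 0 with edgeR, with only the groups compared, relative to the homeostatic list, and without the 5 KO libraries highest in Spp1; leaving out 1 library gave 0 to 4. In KO ONC against KO naive (0) it was 4 relative to the homeostatic list, and 1 with DESeq2, with quantile normalization, with a mean of at least 50 and with only the groups compared; leaving out 1 library gave 0 to 2. In KO IOP against KO naive (2) it was 1 with DESeq2 and with no filter, and 0 with edgeR, either covariate, only the groups compared, and without the 5 KO libraries; leaving out 1 library gave 1 to 3. In KO against WT, IOP (0), leaving out 1 library gave 0 to 1.

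In the interaction of genotype and ONC (1) it was 4 with DESeq2, 2 with quantile normalization, and 0 with edgeR, no filter, a pseudocount of 5, only the groups compared, relative to the homeostatic list, the replicate block, without the 2 libraries highest in lens genes, and without the 5 KO libraries; leaving out 1 library gave 0 to 7. In the genotype by IOP elevation interaction (1) it was 0 with edgeR, no filter, either covariate, only the groups compared, relative to the homeostatic list, the replicate block, without the 2 libraries highest in lens genes, and without the 5 KO libraries; leaving out 1 library gave 0 to 1.

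The deviations of same-numbered libraries had correlations of -0.25 to 0.23 (55 pairs, 10 above 0.1). Those of differently numbered libraries had -0.36 to 0.29 (165 pairs, 23 above 0.1). These ranges show no clear pairing by number but cannot exclude one, and the main fit treated the libraries as unpaired. With the number as a block, the counts called were 8 in WT ONC against WT naive, 1 in KO against WT after ONC and 2 in KO IOP against KO naive, and 0 in both interactions. At the depth of these libraries 3 reads correspond to 2.41 to 4.03 normalized counts, so a value such as 7.02 for Cbr2 rests on few reads.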
